A study of Mus musculus with 48 samples.

Results

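The genes described here are Nnmt, which encodes nicotinamide N-methyltransferase, and 7 other genes of nicotinamide and NAD handling: Nampt, Nmnat1, Nmnat3, Nadk, Nadsyn1, Sirt1 and Aox3. These 8 genes, of 22180 named on the arrays, were listed by name for their place in nicotinamide metabolism. Nnmt was chosen by its level over the protein shares of these same arrays, and the others with their values already known. Levels by protein share are therefore given as a description, with no test. Each gene had 1 probe set with a single symbol, and all 8 passed the filter on low values.

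The arrays came from 48 mouse livers, 1 mouse each, taken at 15 months of age from animals that had eaten their diet freely since 3 weeks of age. Diets differed in energy level (high, medium or low) and in composition, written here as protein/carbohydrate/fat in percent of energy. They made 20 groups of 1 to 4 mice. The protein share was 5% for 10 mice, 14% for 9, 23% for 9, 33% for 9, 42% for 5 and 60% for 6. High energy diets were fed to 29 mice, medium to 14 and low to 5, and 5% protein was fed at high energy alone. The labels give no strain, genotype or drug, and no group was an untreated or chow-fed control. Both sexes entered the study, 1 mouse was harvested from a cage, and the sex of each mouse is not in the labels.

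Nicotinamide is the form of vitamin B3 that is released whenever sirtuins, poly(ADP-ribose) polymerases or CD38 break down NAD. The cell either rebuilds NAD from it, by way of nicotinamide phosphoribosyltransferase (Nampt) and the enzymes Nmnat1 and Nmnat3, or methylates it with Nnmt, which takes the methyl group from S-adenosylmethionine. The liver is a main site of Nnmt expression, and the methylated product is oxidised to pyridones by aldehyde oxidases or excreted in urine. The liver also makes NAD anew from tryptophan through the kynurenine pathway.

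Values are log2 levels of whole liver, so a difference of 1 is a doubling of signal. In bulk tissue, fewer cells of a type and less RNA per cell cannot be told apart. Hepatocyte markers were high in all arrays: the 6 genes of that list averaged 11.70 at 5% protein and 11.77 at 60%. Of the 4 adipocyte markers measured, of 5 listed, Fabp4 ranged from 3.53 to 10.28, while Adipoq stayed between 0.65 and 1.43 and Lep between 0.48 and 1.27 over the 48 arrays. The interquartile range of the values of an array, a measure of their overall spread, was 3.48 ± 0.13 (SD, n = 10) at 5% protein and 3.16 ± 0.20 (SD, n = 6) at 60%. It thus moved with the protein share, and its part in the protein responses was not tested beyond the fits with it as a term that are given beside the values.

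Nnmt was low in livers of mice on 5% protein and high from 33% protein upward. At 5% protein the 10 mice ran from 2.13 through a median of 2.95 to 6.68, with a mean of 3.33 ± 1.44 (SD). At 14% protein the 9 mice ran from 4.08 through 5.83 to 6.91, with a mean of 5.55 ± 0.97 (SD). At 23% protein the 9 mice ran from 4.85 through 6.49 to 7.91, with a mean of 6.36 ± 0.91 (SD). The mice on 14 and 23% protein overlapped over most of their ranges, and within each of the lower 3 shares the mice were widely spread. At 33% protein the 9 mice ran from 5.52 through 7.48 to 7.92, with a mean of 7.24 ± 0.74 (SD). At 42% protein the 5 mice had 6.77, 6.81, 7.31, 7.36 and 7.54, with a mean of 7.16 ± 0.35 (SD). At 60% protein the 6 mice ran from 7.12 through 7.37 to 7.54, with a mean of 7.35 ± 0.18 (SD). From 33% upward the share means lay on a plateau, and the mice on 60% protein had the smallest spread of the 6 shares.

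**Figure D1:**
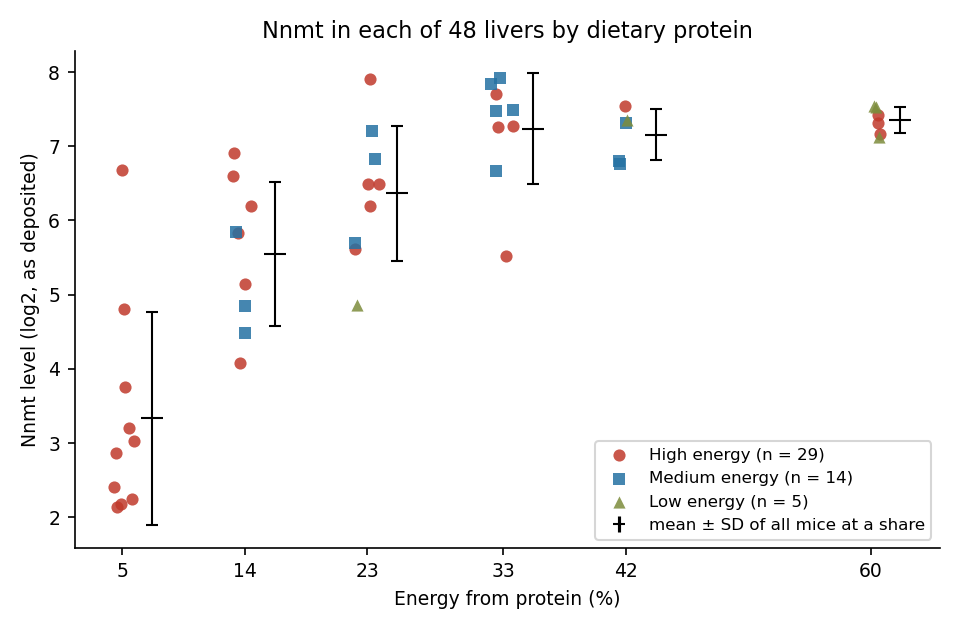
Log2 level of Nnmt in each of the 48 livers (points) against the protein share of the diet in percent, with the mean and SD of each share. The mean was 3.33 at 5% protein and 7.35 at 60% protein, and the means at 33, 42 and 60% protein lay between 7.16 and 7.35.

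All 10 mice on 5% protein lay below all 6 on 60% protein. The means of those shares differed by 4.02 on the log2 scale, or 16.2-fold. The low end was weak signal: the array medians ran from 1.57 to 1.86, and the lowest mouse, at 2.13, exceeded the means of 59.4% of probe sets. The mean at 5% exceeded 69.5% of them and that at 60% exceeded 92.9%. How far weak signal altered the fold was not tested. Ordered by level, 5% lay below 14% by 2.22, a 4.64-fold difference that was beyond the larger SD of the pair (1.44). The steps from 14 to 23% (0.82) and from 23 to 42% (0.79) were within the SD of the mice. The steps from 42 to 33% (0.08) and from 33 to 60% (0.11) were also within it, so the upper 3 shares have no order beyond their spread.

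The rise levelled off. With the exchange of fat for carbohydrate as a term, Nnmt rose by 1.37 ± 0.17 (SE, n = 37) for each 10 points of protein between 5 and 33%. Between 33 and 60% protein the slope was 0.05 ± 0.10 (SE, n = 20). Over all shares it was 0.73 ± 0.10 (SE, n = 48), and 0.77 ± 0.11 with energy level as a further term. That value fell to 0.63 ± 0.11 when the interquartile range of each array was added.

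Shapes of the response were set side by side by the residual SD of the 48 mice. A straight line in protein left 1.21. A line in the logarithm of protein left 0.96, about as little as a separate mean for each of the 6 shares (0.95). A line that turned flat above 14% left 1.11, one that turned flat above 23% left 0.98 and one that turned flat above 33% also left 0.98. By this measure the data thus did not separate a bend at 23% from one at 33%, nor either from a steady logarithmic curve. The measure pools shares of unlike spread, with an SD of 1.44 at 5% protein and 0.18 at 60%. It therefore says little of the shape at the upper shares. Between 33 and 60% alone the slope was 0.05 ± 0.10 (SE, n = 20), as given above. Among the 29 high energy mice the bend at 23% left 1.11, the logarithm 1.11, the bend at 14% 1.16, the bend at 33% 1.18 and the line 1.39.

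The protein slope was positive within each subset looked at apart. These subsets are parts of the arrays by which Nnmt was chosen, so they are no independent support. The slope for 10 points of protein was 0.80 ± 0.15 (SE) in the 29 high energy mice and 0.75 ± 0.22 in the 14 medium energy mice. Mice with numbers under 300 had 0.68 ± 0.11 (n = 34) and those with numbers over 300 had 1.28 ± 0.24 (n = 14). The latter set held 0 mice on 60% protein, 1 on 42% and 4 on 33%, against 6, 4 and 5 in the former. The labels do not say what the gap in the numbers stands for. The slopes were not tested against each other.

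The composition of the rest of the diet was varied within protein shares. On 5/20/75 the mice had Nnmt levels of 2.13 and 2.18. On 5/48/48 they had 2.87, 3.76, 3.03 and 2.41. On 5/75/20 they had 2.25, 6.68, 4.80 and 3.20. The 4 mice on 5/75/20 therefore ran over most of the range seen at 5% protein, and a single animal, replicate 2, stood well above the other mice on 5% protein, though below every mouse on 42 and 60%. At 14% protein the 14/29/57 mice had 6.19, 5.14, 5.83 and 6.60 at high energy and 4.85 at medium energy. The 14/57/29 mice had 4.08 and 6.91 at high energy and 4.48 and 5.85 at medium energy. These sets overlapped throughout.

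At 33% protein the fat-rich 33/20/47 diet gave 7.70 and 7.27 at high energy and 6.67, 7.48 and 7.92 at medium energy. The carbohydrate-rich 33/47/20 diet gave 5.52 and 7.26 at high energy and 7.83 and 7.49 at medium energy. Apart from the mouse at 5.52, both diets gave levels between 6.67 and 7.92. The 23/38/38 mice had 5.62, 7.91 and 6.49 at high energy, 5.69, 7.20 and 6.83 at medium energy and 4.85 at low energy, and the 23/65/12 mice had 6.49 and 6.19. The single low energy mouse at 23% protein was the lowest of its share.

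**Figure D2:**
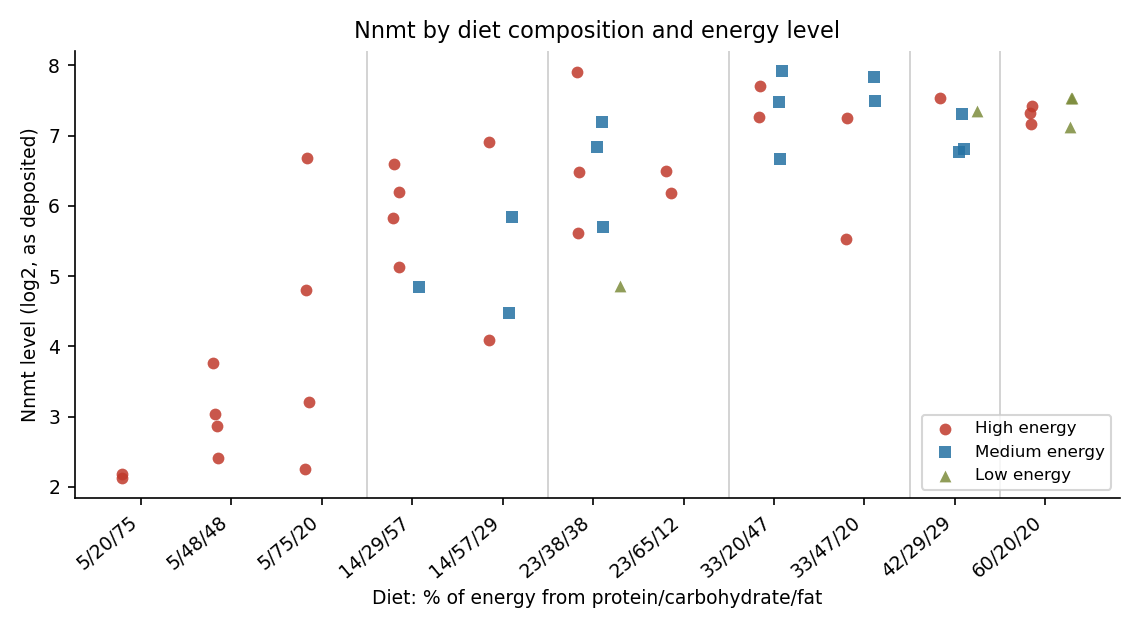
Log2 level of Nnmt in each liver (points) by diet composition (protein/carbohydrate/fat in percent) and energy level. The 5/75/20 mice ran from 2.25 to 6.68, while the 6 mice on 60/20/20 lay between 7.12 and 7.54.

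The exchange of fat for carbohydrate was tested at fixed protein share with limma. Nnmt changed by 0.13 ± 0.10 (SE, n = 48) for each 10 points moved from fat to carbohydrate, with a 95% interval from -0.07 to 0.33 and a Benjamini-Hochberg adjusted p of 1 over 16926 genes. None of the 8 genes passed an adjusted p of 0.05, and the background was 0 of 16926 genes (0%), with 639 genes (3.78%) at an unadjusted p under 0.05 and 0 of the 8 among them. Without replicate 2 of 5/75/20 the Nnmt slope was 0.04. The product of the protein and exchange terms was -0.20 ± 0.09 (SE) for Nnmt, unadjusted p = 0.0279 and adjusted p = 0.749 by limma. It was not called, and no gene of the 16926 was (0%), with 1001 (5.91%) at an unadjusted p under 0.05. Without that same mouse the product was -0.13.

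Energy level was compared between high and medium energy diets over the protein shares, and between low and high energy at 60/20/20. Nnmt was 0.07 ± 0.34 (SE) higher at high than at medium energy, with a 95% interval from -0.62 to 0.76 and an adjusted p of 0.956 by limma. With protein entered as a straight line, which the plateau departs from, the difference was -0.62, also not called. At 60/20/20 the high energy mice had 7.17, 7.42 and 7.32 and the low energy mice 7.12, 7.54 and 7.53. The groups overlapped and differed by 0.10 (exact permutation p = 0.6, where 3 against 3 allows no less than 0.1). The limma interval for that difference ran from -1.37 to 1.56, since its error is taken over all groups. The mean level over all 29 high energy mice, 5.45 ± 1.93 (SD), was below that of the 14 medium energy mice, 6.66 ± 1.06 (SD), but the former alone included the 5% protein diets.

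The other genes of the list had much narrower ranges over the protein shares. The distance from the lowest to the highest share mean was 0.46 for Nampt, 0.49 for Nmnat1, 0.32 for Nmnat3, 0.23 for Nadk, 0.27 for Nadsyn1, 0.13 for Sirt1 and 0.42 for Aox3, against 4.02 for Nnmt. For Nmnat1 and Nmnat3 that distance exceeded the SD of mice within a share (0.37 and 0.29). Both cases rested on the high energy 42/29/29 mouse, at 6.95 for Nmnat1 and 3.44 for Nmnat3. Without it the distances were 0.34 (SD 0.35) and 0.24 (SD 0.27), and Nmnat3 was highest at 14% instead of 42%. Without the same mouse the distance for Sirt1 was 0.21 (SD 0.21). For Nampt (0.51), Nadk (0.25), Nadsyn1 (0.29), Sirt1 (0.25) and Aox3 (0.76) it did not.

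**Figure D3:**
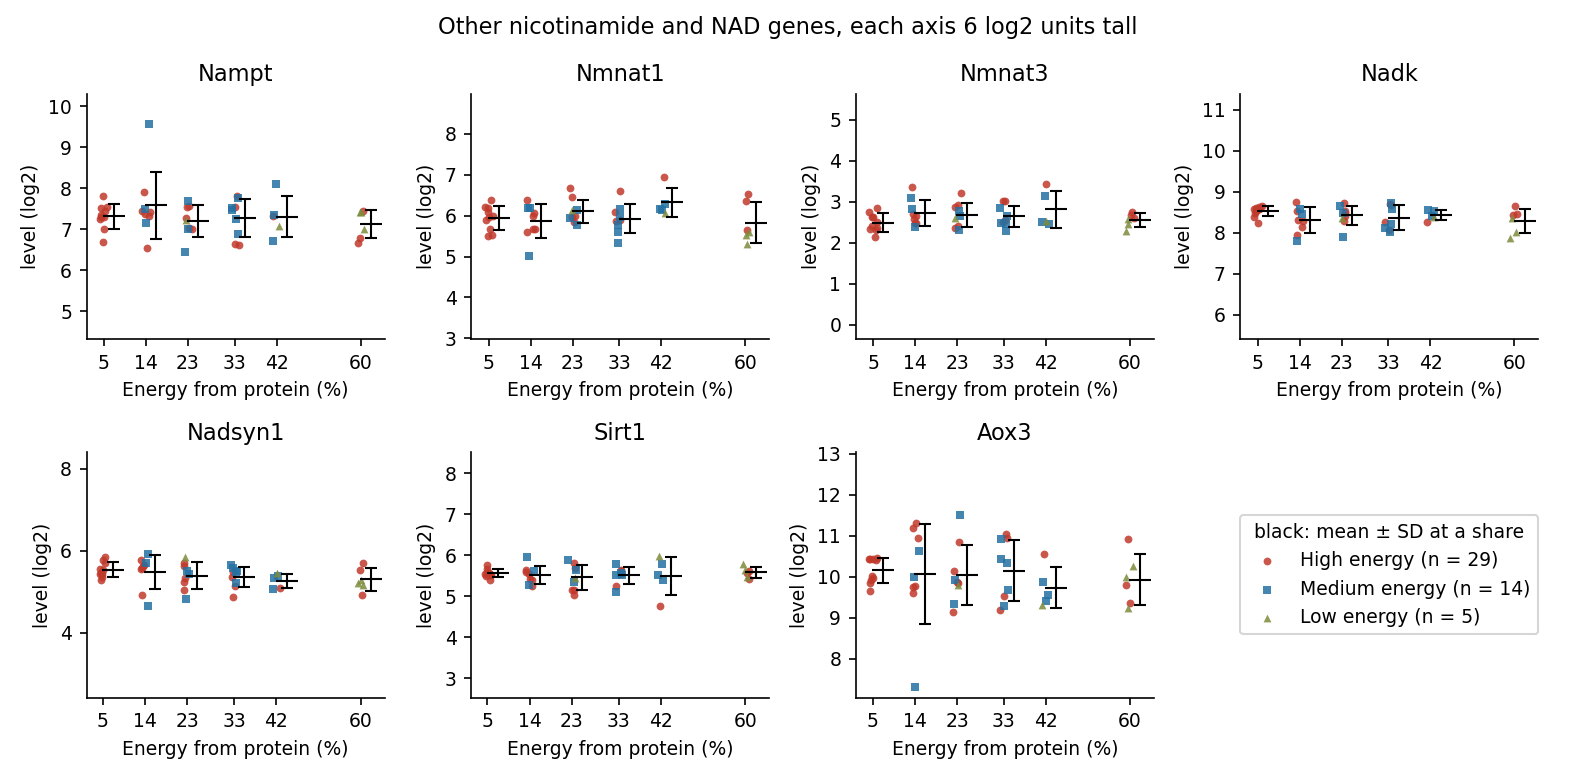
Log2 level of Nampt, Nmnat1, Nmnat3, Nadk, Nadsyn1, Sirt1 and Aox3 in each liver (points) against the protein share in percent, with the mean and SD of each share. The share means of these genes moved by 0.13 (Sirt1) to 0.49 (Nmnat1).

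Nampt makes nicotinamide mononucleotide and is the rate-limiting step of salvage. Its mean level was 7.32 ± 0.31 (SD, n = 10) at 5% protein, 7.58 ± 0.83 (n = 9) at 14% and 7.12 ± 0.35 (n = 6) at 60%. The slope for 10 points of protein was -0.07 ± 0.05 (SE). The large SD at 14% came with a single high mouse that is described further on.

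Nmnat1 and Nmnat3 join nicotinamide mononucleotide to ATP to give NAD, the first in the nucleus and the second mainly in mitochondria. Nmnat1 was highest at 42% protein, 6.32 ± 0.36 (SD, n = 5), and lowest at 60%, 5.83 ± 0.50 (SD, n = 6), with 5.95 ± 0.30 (n = 10) at 5%. The mean at 60% pooled high energy mice at 6.18 ± 0.48 (SD, n = 3) and low energy mice at 5.48 ± 0.15 (SD, n = 3). All mice on 5% were at high energy, and the high energy mean at 60% was not below theirs. Nmnat3 was lowest at 5% protein, 2.49 ± 0.22 (SD, n = 10), and highest at 42%, 2.81 ± 0.45 (SD, n = 5), with 2.56 ± 0.17 (n = 6) at 60%. Its mean over all arrays was 2.64, also weak signal beside array medians of 1.57 to 1.86. Neither gene kept one direction from share to share, and their slopes were 0.05 ± 0.03 and 0.03 ± 0.03 (SE).

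Nadk phosphorylates NAD to NADP in the cytosol, and Nadsyn1 completes the routes from tryptophan and nicotinic acid by amidating the last intermediate. Nadk had 8.53 ± 0.13 (SD, n = 10) at 5% protein and 8.30 ± 0.29 (SD, n = 6) at 60%. The latter pooled high energy mice at 8.51 ± 0.12 (SD, n = 3) and low energy mice at 8.08 ± 0.24 (SD, n = 3), while all mice on 5% were at high energy. Nadsyn1 had 5.54 ± 0.18 (n = 10) at 5% and 5.30 ± 0.28 (n = 6) at 60%, and its slope of -0.06 ± 0.03 (SE) was the opposite in sign to that of Nnmt. For Nadk and Nadsyn1 the difference between 5 and 60% was no larger than the SD at 60%. Sirt1, an NAD-dependent deacetylase, had the smallest range of the 8 genes, from 5.45 ± 0.31 (SD, n = 9) at 23% to 5.59 ± 0.13 (SD, n = 6) at 60%.

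At 60/20/20, 3 of these genes had low and high energy groups that did not overlap. Nmnat1 was at 5.60, 5.31 and 5.53 on low energy and at 5.64, 6.36 and 6.53 on high energy. Nadk was at 7.88, 8.01 and 8.35 on low energy and at 8.43, 8.65 and 8.46 on high energy. Nmnat3 was at 2.28, 2.45 and 2.57 on low energy and at 2.60, 2.76 and 2.68 on high energy. All 3 low energy mice lay below all 3 high energy mice for these genes, by a narrow margin for Nmnat1 and Nmnat3. Of all 16926 tested genes 12.9% had groups that did not overlap, 7.25% with low below high. The exact permutation p was 0.1 for each of the 3, the smallest that 3 against 3 allows.

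Over the whole array, limma gave a low minus high difference of -0.70 ± 0.26 (SE) for Nmnat1 with an adjusted p of 0.414, and of -0.43 ± 0.17 for Nadk with an adjusted p of 0.422. For Nmnat3 it gave -0.24 ± 0.24 with an adjusted p of 0.739. None of the 8 genes was called. The background was 0 of 16926 (0%), with 1710 genes (10.1%) at an unadjusted p under 0.05 and Nmnat1 and Nadk among them. Between high and medium energy, Nmnat1 was 0.30 ± 0.13 (SE) higher at high energy, with an unadjusted p of 0.0215 and an adjusted p of 0.325. It was the single gene of the 8 at an unadjusted p under 0.05, where 12.7% of all genes were, and 0 genes (0%) were called. For the exchange of fat for carbohydrate the other 7 genes had slopes from -0.04 (Nampt) to 0.05 (Aox3), each with an adjusted p of 1. The 95% interval of these slopes was narrowest for Nadk, -0.0045 to 0.10.

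Aox3 encodes a liver aldehyde oxidase, one of the enzymes that can turn methylated nicotinamide into pyridones. At 5% protein its level ran from 9.65 through a median of 10.21 to 10.46, and at 60% from 9.24 through 9.88 to 10.92. The share means were 10.15 ± 0.31 (SD, n = 10) and 9.92 ± 0.62 (SD, n = 6), and the slope for 10 points of protein was 0.0014 ± 0.068 (SE). The spread within shares followed another split of the arrays. In 24 arrays the mean of Y-linked genes lay above Xist and in 24 Xist lay above it. These sets were made from the data and are not groups of the study, so they carry no test.

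Aox3 stood at 10.46 ± 0.80 (SD) in the 24 arrays with Y-linked genes above Xist and at 9.62 ± 0.28 (SD) in the 24 with Xist above. The former ran from 7.31 to 11.51 and the latter from 9.14 to 10.01. Without the mouse at 7.31, the first set was at 10.60 ± 0.45 (SD, n = 23) and started at 9.79. At each protein share but 5 and 14%, every array of the first set lay above every array of the second. At 5% protein 5 of 6 did, and at 14% 4 of 5. The difference of the means was 0.48 at 5% protein, 0.50 at 14%, 1.18 at 23%, 1.31 at 33%, 1.01 at 42% and 0.94 at 60%. At 42% the first set was 1 array.

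**Figure D4:**
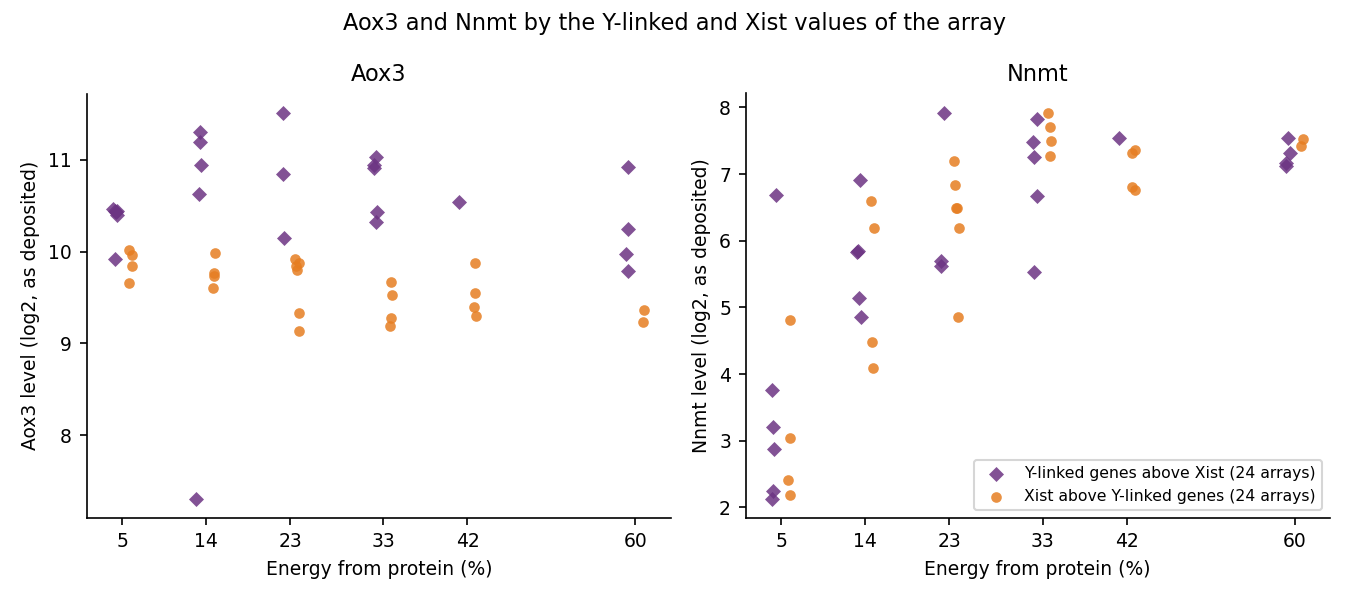
Log2 levels of Aox3 and Nnmt in each liver (points) against the protein share in percent, separated by whether Y-linked genes or Xist gave the higher value on the array. Aox3 averaged 10.46 and 9.62 in these sets, while Nnmt averaged 5.84 and 6.06 and overlapped.

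Within the 24 arrays with Xist above, Aox3 fell by 0.11 ± 0.03 (SE) for each 10 points of protein. In the other 24 the slope was 0.01 ± 0.09 (SE). The difference of those slopes was not tested. Nnmt did not separate along this split, with 5.84 ± 1.81 (SD) against 6.06 ± 1.71 (SD) and overlapping values at each share that held more than 1 array of each set, and its protein slope was 0.67 ± 0.15 and 0.81 ± 0.15 (SE). Nmnat3 (2.52 against 2.77) and Nadk (8.30 against 8.50) were somewhat lower in the arrays with Y-linked genes above Xist, each with overlap over the 48 arrays. At 23% protein Nmnat3 separated, with 2.32 to 2.42 against 2.61 to 3.21, and so it did at 33%, with 2.28 to 2.56 against 2.64 to 3.01. At 42% it went the other way, with 1 array at 3.44 against 4 from 2.46 to 3.14. Nampt separated at 33%, with 6.62 to 7.47 against 7.52 to 7.80.

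A single animal, the medium energy mouse on 14/29/57, stood apart for several of these genes. Its Nampt level of 9.57 was above the other 47 mice, which ran from 6.43 to 8.10. Its Aox3 level of 7.31 was below the other 47, which ran from 9.14 to 11.51. Its Nmnat1 (5.02), Nadk (7.79) and Nadsyn1 (4.64) were also the lowest of the 48, while Nnmt (4.85), Sirt1 (5.27) and Nmnat3 (2.82) lay within the range of the others. The liver of this mouse had a macrophage marker mean of 10.14 over 5 genes, against at most 8.07 in the other 47. Its hepatocyte marker mean was 10.70 over 6 genes, against at least 11.58 in the others, and its endothelial marker mean was 8.004 against at most 7.23. Its adipocyte marker mean (3.36 against at most 2.83) and exocrine pancreas marker mean (3.78 against at most 3.50) were also above all others. The former held 4 genes, of which Adipoq, Lep and Plin1 reached at most 1.43, 1.27 and 2.52 on any array and Fabp4 10.28. The latter held 2 genes, of which Cpa1 reached at most 2.47 and Cela1 5.37. The part of these marker differences in its Nampt and Aox3 values was not tested. 

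Promoter sequence was looked up in RefSeq for GRCm38.p6 as windows of 300 bases, from 250 before to 50 after a transcript start. An entry was matched for 7 of the 8 genes. Nnmt had none, so its promoter was not examined. Each window was searched on both strands for the TATA box spelled TATAAA, the CCAAT box spelled ATTGG, the GC box spelled GGGCGG, the E-box spelled CACGTG and the spaced repeat TTCNNNGAA. Of 32851 mouse promoters of that length 13.6% held TATAAA, 37.4% ATTGG, 35.7% GGGCGG, 7.15% CACGTG and 8.3% TTCNNNGAA. The windows of Aox3 and Nampt are shown because the same liver, of the medium energy 14/29/57 mouse, stood far apart for both genes. That of Aass, a lysine catabolism gene, is shown because its level followed Nnmt among mice fed alike. Capitals mark matches to the motifs, and each sequence runs 5′ to 3′ on the strand of its gene.
Aox3, chr1:58112886-58113185, plus strand: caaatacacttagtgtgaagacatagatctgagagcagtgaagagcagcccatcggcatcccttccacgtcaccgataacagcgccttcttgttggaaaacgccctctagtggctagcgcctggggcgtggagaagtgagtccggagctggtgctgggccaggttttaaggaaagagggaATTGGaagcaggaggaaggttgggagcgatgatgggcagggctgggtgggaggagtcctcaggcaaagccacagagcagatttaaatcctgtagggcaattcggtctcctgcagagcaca
Nampt, chr12:32820085-32820384, plus strand: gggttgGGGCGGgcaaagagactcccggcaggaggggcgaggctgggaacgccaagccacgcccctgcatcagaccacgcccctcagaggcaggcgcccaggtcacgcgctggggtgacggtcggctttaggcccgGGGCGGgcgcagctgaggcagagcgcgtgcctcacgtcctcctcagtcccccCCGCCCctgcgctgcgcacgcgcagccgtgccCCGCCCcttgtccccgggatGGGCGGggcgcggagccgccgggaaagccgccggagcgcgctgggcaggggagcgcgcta
Aass, chr6:23132937-23133236, minus strand: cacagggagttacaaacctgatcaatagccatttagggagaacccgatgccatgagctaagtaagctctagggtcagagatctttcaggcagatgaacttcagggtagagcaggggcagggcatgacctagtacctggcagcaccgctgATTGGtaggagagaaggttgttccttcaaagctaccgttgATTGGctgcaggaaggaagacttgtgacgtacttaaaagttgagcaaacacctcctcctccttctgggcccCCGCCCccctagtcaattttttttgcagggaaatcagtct

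The Nampt window held 5 GC boxes and was 76.3% G and C, against a median of 52.7% over all promoters. The Aox3 window held 1 CCAAT box and no GC box and was 55% G and C. The Sirt1 window held 7 GC boxes and 2 E-boxes at 79% G and C. Those of Nadsyn1 and Nmnat3 held 2 and 4 GC boxes, and both Nmnat1 windows held 1 CCAAT box and 1 GC box. The windows of Nadk differed, one with 1 CCAAT box and the other with 1 GC box and 1 E-box. No window of the 7 genes held TATAAA or TTCNNNGAA. These matches describe letters in the windows and not bound sites.

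Genes on the routes around nicotinamide were taken as 4 lists, of 56 genes in all without the 8 described above. Their protein slopes were tested with limma over all 16926 genes, of which 1187 (7.01%) passed, 570 upward (3.37%) and 617 downward (3.65%). The lists were drawn up with earlier results of these data known, so their counts and adjusted p are no independent support. The median slope of all genes was -0.0019. After every array was shifted to a common median, the upward share of calls moved from 48.0% to 31.1%, and with the interquartile range as a term it was 67.3%. That term left 113 genes called.

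Of 13 genes listed around NAD synthesis, not all of which feed it, 4 rose with protein and 0 fell, with a median slope of 0.07. All 4 belong to tryptophan breakdown. Acmsd, whose enzyme draws the pathway away from NAD, rose by 0.52 ± 0.07 (SE) for each 10 points of protein (adjusted p = 3.42e-06), from 5.46 ± 0.92 (SD, n = 10) at 5% to 8.15 ± 0.57 (SD, n = 6) at 60%. Kynu, kynureninase, rose by 0.23 ± 0.04 (adjusted p = 0.000286), and Tdo2, which opens the pathway, by 0.22 ± 0.04 (adjusted p = 0.00126). Haao, which makes the precursor of quinolinate, rose by 0.18 ± 0.05 (adjusted p = 0.0277). With the interquartile range of the arrays as a term, Acmsd and Kynu were still called by limma, while Tdo2 (adjusted p = 0.0514) and Haao (adjusted p = 0.524) were not. Haao was also lost without replicate 3 of high energy 60/20/20 (adjusted p = 0.062) or the high energy 42/29/29 mouse (adjusted p = 0.0558).

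Of the methyl donor and polyamine genes, 14 of 17 could be tested, 3 rose and 0 fell, and the median slope was 0.06. Cth, which makes cysteine from cystathionine, rose by 0.33 ± 0.04 (SE) for each 10 points of protein (adjusted p = 3.92e-07 by limma), from 9.73 ± 0.42 (SD, n = 10) at 5% to 11.16 ± 0.43 (SD, n = 6) at 60%. Gnmt, a methyltransferase that like Nnmt consumes S-adenosylmethionine, rose by 0.22 ± 0.04 (adjusted p = 0.000241). Ahcy, which removes the S-adenosylhomocysteine that such enzymes leave, rose by 0.14 ± 0.02 (adjusted p = 0.000153). All 3 were called with the interquartile range as a term. Bhmt2 had a slope of 0.07 with an adjusted p of 0.114. Mat2a and Amd1 had no probe set with a single symbol.

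Of the NAD consumers, 12 of 14 could be tested, 1 rose and 2 fell, with a median slope of -0.07. Sirt7, a nuclear sirtuin, rose by 0.11 (adjusted p = 0.0414 by limma), and the polymerase family members Parp3 and Parp14 changed by -0.10 (adjusted p = 0.0357) and -0.14 (adjusted p = 0.0429). Sirt3, the main mitochondrial deacetylase, had 0.10 with an adjusted p of 0.111. None of the consumers was called with the interquartile range as a term, and none with the group as a random block, where the adjusted p by limma was 0.0761 for Sirt7, 0.0661 for Parp3 and 0.0684 for Parp14. The count of 3 moved to between 0 and 4 when single mice were left out. Cd38 had no single-symbol probe set and Sarm1 was below the filter.

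None of 11 tested genes of NAD breakdown, transport and redox was called, of 12 listed, and their median slope was 0.05. The lowest adjusted p, 0.0803, was that of Slc25a51, the mitochondrial NAD carrier, with a slope of 0.16. With the interquartile range as a term its slope was 0.24 and its adjusted p 0.0247 by limma. Nnt, the mitochondrial transhydrogenase, had -0.08 (adjusted p = 0.127), and Naxe, a repair enzyme of damaged NADH, 0.06 (adjusted p = 0.142). Aox1, the relative of Aox3, had -0.12 (adjusted p = 0.233). Without the medium energy 14/29/57 mouse, Nnt and Aox1 passed with adjusted p of 0.0227 and 0.0244, so that mouse decided their calls.

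The genes most like Nnmt were ranked by Pearson correlation over the 48 arrays. These correlations share the arrays and the diets and were used to pick the genes, so they are given without a p. The highest were Gm5424 (r = 0.891), Cps1 (0.889), Asl (0.887), Orm1 (0.877) and Aass (0.865). Cps1 and Asl encode enzymes of the urea cycle, Orm1 an acute phase plasma protein and Aass the enzyme that starts lysine breakdown. Among the 38 mice above 5% protein r was lower, from 0.586 for Orm1 to 0.759 for Gm5424. The lowest r were those of Adgrg2 (-0.834), Serinc2 (-0.787), Slc17a8 (-0.779), Ermp1 (-0.772) and Itga6 (-0.763). Above 5% protein these were -0.579, -0.623, -0.783, -0.645 and -0.254 in the same order, so that of Itga6 came mostly from the mice on 5%.

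Deviations from the 20 group means remove the diet and leave differences between mice fed alike. By this measure, with 28 degrees of freedom, the genes closest to Nnmt were Aass (r = 0.764), Hspb8 (0.740), Cps1 (0.728), Asl (0.708) and Got1 (0.708). Without the 2 mice whose Nnmt lay farthest from their group, r was 0.755 for Hspb8, 0.649 for Asl, 0.647 for Aass, 0.622 for Got1 and 0.539 for Cps1, so the order of these genes depended on those mice. The 5/75/20 replicate 2 mouse, with Nnmt at 6.68, was also the highest of the 10 mice on 5% protein for Cps1 (12.16), Gm5424 (11.36), Got1 (11.23) and Orm1 (9.65). Its hepatocyte marker mean (11.75) was within the range of the other 9 mice on 5% protein, 11.58 to 11.80. Its stellate marker mean (5.11) was below theirs, 5.24 to 6.91, and the part of this in its Nnmt level was not tested. The 7 other nicotinamide genes had r with Nnmt over the 48 arrays from -0.276 (Nadsyn1) to 0.135 (Nmnat3).

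**Figure D5:**
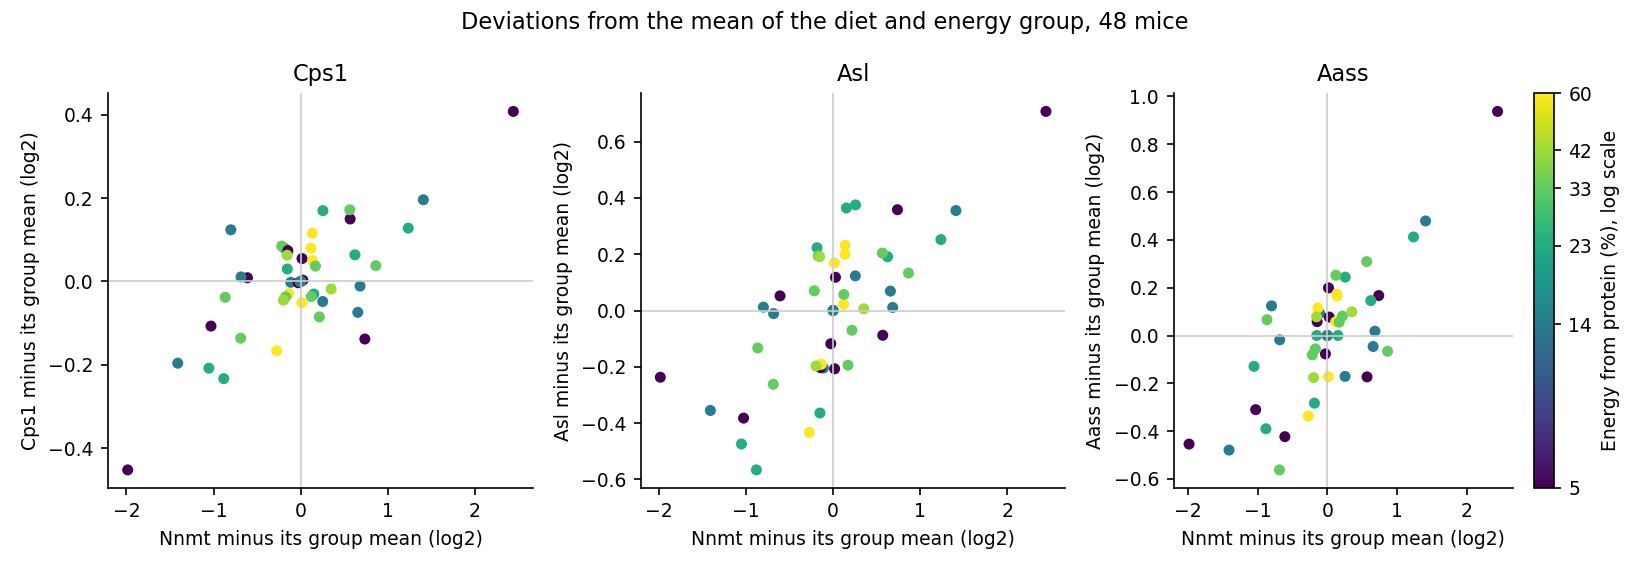
Deviation of Cps1, Asl and Aass (vertical axes, log2) against that of Nnmt (horizontal axis, log2), each liver taken as a point relative to the mean of its group of composition and energy level and coloured by the protein share in percent. The deviations rise together, with r of 0.728 for Cps1, 0.708 for Asl and 0.764 for Aass, and the 5/75/20 replicate 2 mouse lies at the upper right of each panel.

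Other cell types in the liver samples were followed by marker lists. From 5% to 60% protein the list mean went from 5.79 to 4.94 for stellate cells, from 6.46 to 5.86 for macrophages, from 6.73 to 6.35 for endothelial cells, from 3.57 to 3.06 for lymphocytes and from 2.03 to 2.28 for adipocytes. None of these lists kept one direction from share to share. The macrophage mean was 6.75 at 14% and 6.50 at 42%, and the lymphocyte mean was 3.65 at 42%. Of the markers, Col1a1, a collagen of stellate cells, was the one called, with a slope of -0.32 (adjusted p = 0.0278 by limma). Of all tested genes 7.01% were called. The part of these shifts in the level of Nnmt was not tested.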

How the data were processed

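RNA of 48 livers was hybridised to Affymetrix arrays, 1 per mouse, per the labels. The deposited table holds 41345 probe sets with values from -0.51 to 13.42, read as log2 levels deposited by the authors; their unit, background correction and normalization are not given in the sources used here. No further normalization was applied. Arrays count no molecules, and precision is limited by their number.

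Probe sets were named from the platform annotation, 23521 with 1 symbol and 1814 with several, which were left out. A gene was its probe set with the highest mean, and 16926 genes whose mean exceeded the 30th percentile of probe set means (1.17) were tested with limma 3.58.1 (lmFit, eBayes with trend) in R 4.3.3, two-sided, with Benjamini-Hochberg adjustment. The protein slope was fitted with carbohydrate-fat exchange and energy as terms. The fits for exchange, for energy, and for the product of exchange and protein used 1 term per protein share, since 5% protein was fed at high energy alone. Low against high energy used 20 group means. The fits were tested on simulated data.

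Members and lists were chosen with earlier results of these data known. Named were the 8 genes, up to 4 of each list with the smallest p, and the 5 highest and lowest correlations with Nnmt, and the 5 highest after group means were removed. Genes behind low counts, the 2 mice described apart and the marker lists were singled out after their values were seen. Alternatives changed filter, probe set rule, normalization, array weights, covariates, block, protein scale and samples.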

Additional observations from a re-analysis of the deposited data

Results flagged for a closer look

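Each of the 8 genes was looked at within each of the 6 protein shares, 48 sets of 5 to 10 mice, for a mouse whose gap to the next was large against the range of its set. Chance alone gives this in about 1 set in 20, or 2.4 of 48, and 3 were found. At 14% protein the medium energy 14/29/57 mouse had a Nampt level of 9.57, with the next mouse at 7.91. The same mouse had an Aox3 level of 7.31, with the next at 9.60. Its macrophage marker mean was 10.14, against at most 8.07 in the other 47 mice, and the part of this in both values was not tested. At 42% protein the high energy 42/29/29 mouse had an Nmnat1 level of 6.95, with the next at 6.28.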

How the results depend on the processing

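The protein slope of Nnmt kept its sign in all alternatives and all 48 fits that left out a mouse, and moved beyond its error with the array interquartile range as a term (0.63). None of the 24 tests of exchange and energy on the 8 genes was called in any alternative or with any mouse left out. The number of genes called for protein, 1187, became 4301 with array weights, 113 with the interquartile range and 630 with the group as a random block. It ran from 588 to 3004 when single mice were left out, and left the range of 1.5 times without replicate 1 (2147), 2 (3004) or 3 (620) of high energy 60/20/20, replicate 1 (726) or 2 (743) of 5/20/75, replicate 1 (784), 3 (778) or 4 (758) of 5/48/48, and the high energy 42/29/29 mouse (588). Array weights gave 14 genes for exchange and 12 for low against high energy. Leaving out single mice gave 0 to 4 genes for high against medium energy and 0 to 5 for low against high.

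Small effects turned sign. The exchange slope of Nmnat3 became 0.0021 with quantile normalization, and that of Nadsyn1 -0.0023 with a term for mouse number, -0.0034 without the 14/29/57 mouse and -0.017 in high energy diets alone. High minus medium energy for Nnmt became -0.042 with the interquartile range, -0.62 with protein as a straight line and -0.11 with its logarithm, and for Nadsyn1 0.035 with quantile normalization and 0.0084 with the straight line. Low minus high energy became 0.032 for Nadsyn1 with quantile normalization and -0.056 for Nnmt with the interquartile range. With single mice left out, high minus medium energy ran from -0.081 to 0.25 for Nnmt and -0.11 to 0.033 for Nadsyn1. The exchange slope ran from -0.0034 to 0.021 for Nadsyn1 and -0.015 to 0.0034 for Sirt1, and low minus high energy of Aox3 from -0.53 to 0.25. The cause was not tested. No paired analysis was possible because the mice carry numbers of their own that no groups share.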
